A study of Arabidopsis thaliana with 6 samples.

Results

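The 7 genes described here encode enzymes with which Arabidopsis thaliana recovers phosphate from organic compounds. They are the phosphatase genes PS2 (AT1G73010) and PEPC1 (AT1G17710), the purple acid phosphatase genes PAP10 (AT2G16430), PAP12 (AT2G27190), PAP17 (AT3G17790) and PAP26 (AT5G34850), and the ribonuclease gene RNS1 (AT2G02990). They were chosen by gene identifier, with earlier results of these libraries known: PS2 had already been seen among the genes with the largest decreases in apc8-1. Their levels and their differences between genotypes are therefore given as a description, with no p-value and no count of calls. Each identifier matched 1 of the 32594 loci of the table, each of these loci carries a single gene name, and none is an antisense locus. All 7 passed the filter on low values, which kept 17802 loci with at least 1 FPKM (fragments per kilobase, scaled for each library) in at least 2 libraries.

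RNA came from whole seedlings 14 days old, grown on MS plates without a treatment, and each of 3 genotypes had 2 libraries. The wild type was Col-0, apc8-1 is mutated in APC8, which encodes part of the ubiquitin ligase called the anaphase promoting complex/cyclosome, and nrpe1-12 is mutated in NRPE1, which encodes the catalytic subunit of RNA polymerase V in RNA-directed DNA methylation. The sources used here do not give the lesions of the alleles. Total RNA was depleted of ribosomal RNA and was not selected for polyadenylated transcripts, as far as the labels say.

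Plants short of phosphate secrete acid phosphatases and ribonucleases, which release phosphate from organic esters and RNA around the root, and induce intracellular phosphatases that recycle phosphate from metabolites. The MYB transcription factor PHR1 activates many of these genes, and SPX domain proteins hold PHR1 back when phosphate is plentiful. PS2 and PEPC1 belong to the haloacid dehalogenase family of phosphatases, PS2 being known as a pyrophosphatase and PEPC1 as a phosphatase of phosphoethanolamine and phosphocholine. Purple acid phosphatases hold a pair of metal ions in the active site. PAP10 is known from the root surface, PAP12 and PAP26 are secreted, PAP26 also being a major acid phosphatase of the vacuole, and PAP17 is induced by phosphate starvation and senescence. RNS1 is a secreted ribonuclease of the T2 family, induced by phosphate starvation and wounding.

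By estimate, 13.95 to 19.1 fragments per kilobase made up 1 FPKM, depending on the library. Within a genotype, log2(FPKM + 1) correlated at r = 0.989 to 0.991 across tested loci, and between genotypes at 0.954 to 0.969, where loci are not independent replicates. No source used here says that the duplicates came from separate cultures, so all p-values below measure only the spread between these samples. Differences of genes other than the 7 were called at an adjusted p below 0.05 (limma, Benjamini-Hochberg over all tested loci). By this measure 16.1% of tested loci were lower and 14.1% higher in apc8-1 against Col-0, and 12.8% lower and 13.5% higher in nrpe1-12 against Col-0. With the organelle and rRNA genes left out and the libraries rescaled, the median difference of all tested loci went from 0.01 to -0.07 in apc8-1 and from -0.01 to -0.11 in nrpe1-12, on the log2 scale. The share of increases among calls then went from 46.6% to 31.9% in apc8-1 and from 51.4% to 31.4% in nrpe1-12.

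Seedlings of apc8-1 had far less transcript of PS2, PEPC1, PAP17 and RNS1 than Col-0, and moderately less of PAP12, while PAP10 and PAP26 differed little. In nrpe1-12 the largest relative differences from Col-0 were those of PAP17 and RNS1, and PS2 stood close to the wild type.

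**Figure D1:**
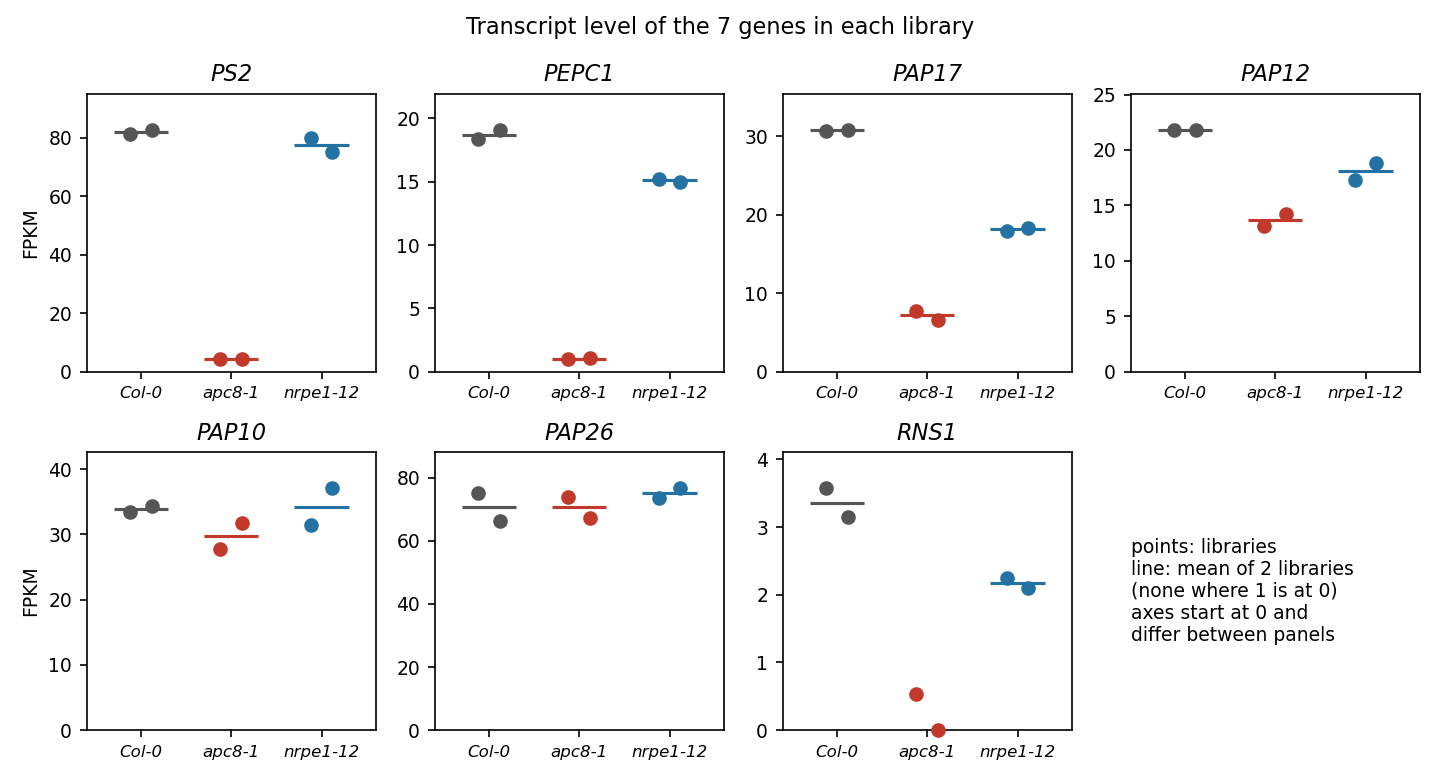
Level of each of the 7 genes in FPKM (vertical axes, starting at 0 and differing between panels) in the libraries of Col-0, apc8-1 and nrpe1-12, with points for libraries and a line for the mean of 2 libraries, drawn only where neither is at 0. PS2 stands at 81.2 and 82.8 FPKM in the wild type and at 4.36 and 4.47 in apc8-1, while PAP26 lies between 66.4 and 76.6 FPKM in all 6 libraries.

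PS2 (chromosome 1, 27464572 to 27466256, minus strand, TAIR10, transcript of 1172 bases) gave 81.2 and 82.8 FPKM in the wild type, 4.36 and 4.47 FPKM with the apc8-1 allele, and 80.0 and 75.0 FPKM with the nrpe1-12 allele. The apc8-1 libraries lay far below the other 4, and those of nrpe1-12 just below Col-0 without overlap. For this and the other genes, lack of overlap between 2 and 2 libraries says little by itself. The smallest p of an exact permutation test is 0.333 at this size, and the share of all tested loci without overlap is not given here. The mean was 82.0 ± 1.07 FPKM in the wild type, 4.42 ± 0.0794 in apc8-1 and 77.5 ± 3.52 in nrpe1-12 (SD, n = 2 for each), so Col-0 had 18.6 times the level of apc8-1. On the log2(FPKM + 1) scale the difference from Col-0 was -3.94 in apc8-1 (SE 0.07) and -0.08 in nrpe1-12 (SE 0.07), the latter becoming -0.20 without the organelle and rRNA genes. Of the 17802 tested loci, PS2 had the 4th lowest difference in apc8-1 and ranked 7151 from the lowest in nrpe1-12. An estimated 66 and 69 fragments lay behind the apc8-1 values, against 1477 and 1118 in Col-0.

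PEPC1 (chromosome 1, 6090560 to 6092027, minus strand, transcript of 1095 bases) gave 18.4 and 19.1 FPKM in the wild type, 1.01 and 1.06 FPKM with the apc8-1 allele, and 15.3 and 15.0 FPKM with the nrpe1-12 allele. The 3 genotypes did not overlap, with apc8-1 by far the lowest and nrpe1-12 slightly below Col-0. Col-0 had 18.1 times the level of apc8-1 and 1.24 times that of nrpe1-12. The difference from Col-0 on the log2(FPKM + 1) scale was -3.28 in apc8-1 (SE 0.09), the 12th lowest of all tested loci, and -0.29 in nrpe1-12 (SE 0.09). The apc8-1 values rest on an estimated 14 and 15 fragments.

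PS2 and PEPC1 kept nearly the same proportion to each other in Col-0 and apc8-1, although each had more than 18 times as much transcript in Col-0. PS2 had 4.43 and 4.33 times the FPKM of PEPC1 in the Col-0 libraries and 4.33 and 4.22 times in apc8-1. The apc8-1 ratios are imprecise, since they rest on an estimated 14 and 15 fragments of PEPC1. In nrpe1-12 the ratio was 5.25 and 5.01, above all 4 other libraries.

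PAP17 (chromosome 3, annotated gene 6089605 to 6091231, plus strand, transcript of 1434 bases) gave 30.7 and 30.8 FPKM in the wild type, 7.77 and 6.59 FPKM with the apc8-1 allele, and 18.0 and 18.3 FPKM with the nrpe1-12 allele. The genotypes did not overlap, and nrpe1-12 lay between Col-0 and apc8-1. The mean in apc8-1 was 23.4% of that in Col-0, and the mean in nrpe1-12 was 59.0% of it. On the log2(FPKM + 1) scale the difference from Col-0 was -1.96 in apc8-1 and -0.73 in nrpe1-12 (SE 0.09 for each). PAP17 had the largest difference of the 7 genes in nrpe1-12 on this scale, and ranked 756 from the lowest of all tested loci there. Its 3′ end overlaps that of AT3G17800, a gene on the opposite strand (6091110 to 6093151), over 122 bases. The table lists both genes with their own values under 1 locus span, 6089605 to 6093151. Whether fragments were counted by strand is not stated, so how fragments of this span were divided between them is not known. AT3G17800 gave 59.5 and 64.7 FPKM in the wild type, 53.4 and 54.8 FPKM with the apc8-1 allele, and 75.1 and 74.9 FPKM with the nrpe1-12 allele. It passed the test in nrpe1-12 as higher (log2 difference 0.27, adjusted p = 0.0160 by limma) and not in apc8-1 (-0.19, adjusted p = 0.0526).

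PAP12 (chromosome 2, 11621222 to 11623618, minus strand, transcript of 1768 bases) had 21.8 FPKM in each Col-0 library, 13.1 and 14.2 in apc8-1, and 17.3 and 18.9 in nrpe1-12. The genotypes followed the same order as for PAP17 without overlap, over a narrower range. The mean in apc8-1 was 62.6% of that in Col-0 and the mean in nrpe1-12 was 83.0% of it. The differences on the log2(FPKM + 1) scale were -0.64 and -0.26 (SE 0.08 for each).

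PAP10 (chromosome 2, locus 7120419 to 7123015, minus strand, annotated transcript of 1632 bases) gave 33.4 and 34.3 FPKM in the wild type, 27.8 and 31.7 FPKM with the apc8-1 allele, and 31.4 and 37.1 FPKM with the nrpe1-12 allele. Both apc8-1 libraries were below both Col-0 libraries, while those of nrpe1-12 lay on either side of Col-0. The log2(FPKM + 1) difference was -0.18 in apc8-1 and 0.01 in nrpe1-12 (SE 0.10 for each), the latter becoming -0.11 without the organelle and rRNA genes.

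PAP26 (chromosome 5, 13108154 to 13111631, minus strand, annotated transcript of 2030 bases) gave 75.0 and 66.4 FPKM in the wild type, 74.0 and 67.1 FPKM with the apc8-1 allele, and 73.4 and 76.6 FPKM with the nrpe1-12 allele. The ranges of all 3 genotypes overlapped. The log2(FPKM + 1) difference was 0.00 in apc8-1 and 0.09 in nrpe1-12 (SE 0.08 for each), and without the organelle and rRNA genes it was -0.09 and -0.03. An estimated 1723 to 2592 fragments per library made PAP26 the most deeply covered of the 7 genes. The listed exon of this locus belongs to an assembled transcript that shares a splice junction with the annotated one but differs from it elsewhere.

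RNS1 (chromosome 2, 873506 to 874811, plus strand, transcript of 1045 bases) gave 3.57 and 3.15 FPKM in the wild type, 0.534 and 0 FPKM with the apc8-1 allele, and 2.25 and 2.103 FPKM with the nrpe1-12 allele. As for PAP17, nrpe1-12 lay between Col-0 and apc8-1 without overlap. RNS1 was the least abundant of the 7 genes in every library. It passed the filter through Col-0 and nrpe1-12, with no apc8-1 library at 1 FPKM or more. An estimated 7 fragments and none lay behind the apc8-1 values, against 56 and 37 in Col-0 and 31 and 24 in nrpe1-12. The log2(FPKM + 1) difference was -1.82 in apc8-1 and -0.46 in nrpe1-12 (SE 0.21 for each). With a pseudocount of 0.1 the value for apc8-1 was -3.78.

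**Figure D2:**
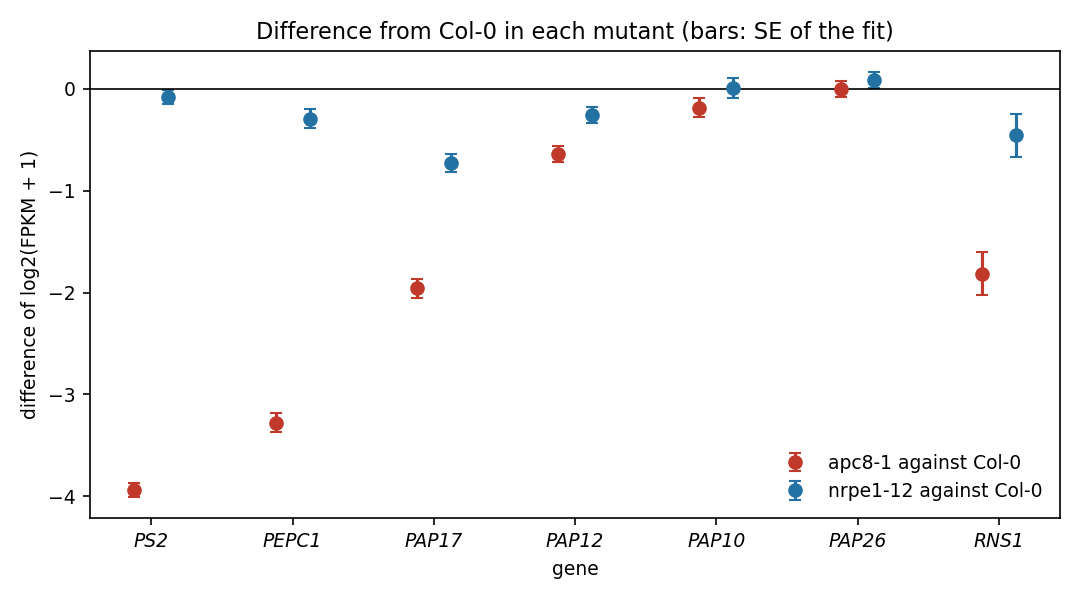
Difference of each mutant from Col-0 on the log2(FPKM + 1) scale (vertical axis) for the 7 genes (horizontal axis), with bars for the SE of the fit of all 6 libraries. In apc8-1 the differences run from -3.94 for PS2 to 0.00 for PAP26, and in nrpe1-12 from -0.73 for PAP17 to 0.09 for PAP26.

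Against nrpe1-12, both apc8-1 libraries had less transcript of PS2, PEPC1, PAP17, PAP12 and RNS1, without overlap, which here too says little by itself. The log2(FPKM + 1) difference between the mutants was -3.86 for PS2 and -2.99 for PEPC1. It was -1.23 for PAP17 and -0.38 for PAP12, and -1.36 for RNS1, which with a pseudocount of 0.1 became -3.18. PAP10 and PAP26 overlapped between the mutants, with differences of -0.19 and -0.09. The comparisons of each mutant with Col-0 share the Col-0 libraries, whereas this comparison does not use them except for the pooled spread.

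The order of levels differed between the genotypes, which FPKM allows to be compared between genes because it is scaled to transcript length. In Col-0 the order was PS2, PAP26, PAP10, PAP17, PAP12, PEPC1 and RNS1, and no neighbouring genes overlapped. In apc8-1 it was PAP26, PAP10, PAP12, PAP17, PS2, PEPC1 and RNS1, again with no overlap between neighbours. In nrpe1-12 the order was that of Col-0, but the ranges of PS2 and PAP26 overlapped, as did those of PAP17 and PAP12.

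The summed level of the 7 genes was 264 and 258 FPKM in the wild type, 129 and 125 in apc8-1, and 238 and 243 in nrpe1-12. The sum over the 4 purple acid phosphatase genes differed less, with 161 and 153 FPKM in the wild type, 123 and 120 in apc8-1 and 140 and 151 in nrpe1-12. PS2 made up 31.4 ± 0.884% of the 7-gene sum in the wild type, 3.48 ± 0.128% with the apc8-1 allele and 32.3 ± 1.98% with the nrpe1-12 allele (SD, n = 2). The share of PAP26 was 27.1 ± 1.92% in the wild type, 55.6 ± 2.79% with the apc8-1 allele and 31.2 ± 0.455% with the nrpe1-12 allele. PAP26 had 2.45 and 2.15 times the FPKM of PAP17 in Col-0, 9.53 and 10.2 times in apc8-1, and 4.09 and 4.18 times in nrpe1-12.

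**Figure D3:**
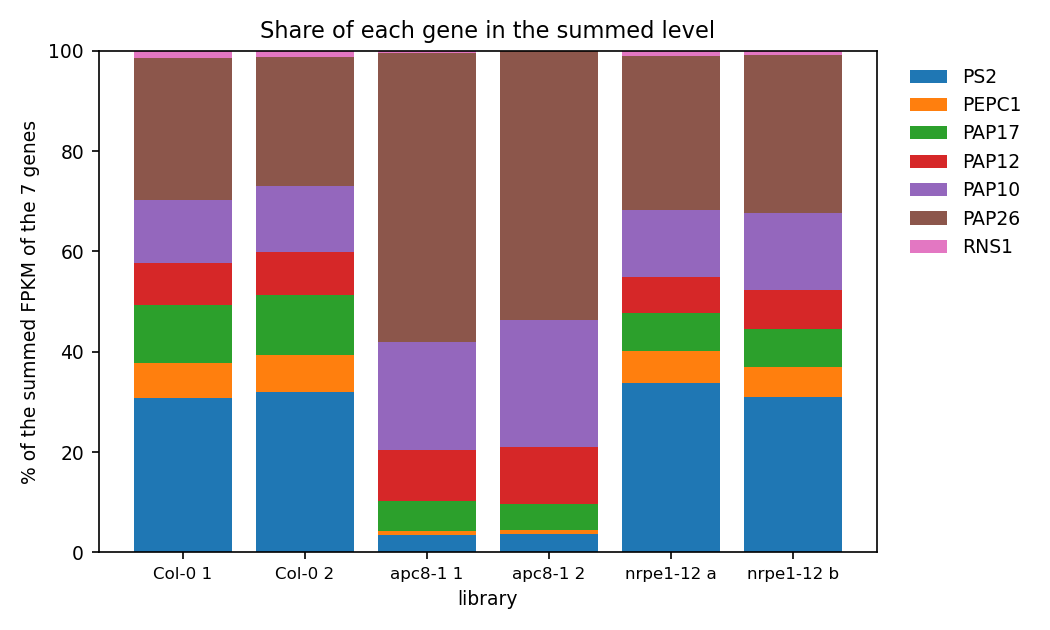
Share of each of the 7 genes in their summed FPKM (vertical axis, %) in each of the 6 libraries (horizontal axis). PAP26 makes up 57.6 and 53.6% of the sum in the apc8-1 libraries, where PS2 makes up 3.39 and 3.57%.

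The genes next to the 7 on the chromosome were examined as well. Of these 14 nearest annotated neighbours 10 were tested, and none was called by limma in apc8-1 against Col-0 (1 at an unadjusted p below 0.05), where log2 differences ran from -0.50 to 0.32 (30.2% of all tested loci were called). In nrpe1-12 the calls were AT3G17800, next to PAP17, as higher, and AT2G27200, next to PAP12, as lower (log2 difference -0.72, adjusted p = 0.0042 by limma), where 26.3% of all tested loci were called. AT1G17700, 236 bases from PEPC1, gave 9.54 and 10.4 FPKM in the wild type and 7.73 and 7.64 FPKM with the apc8-1 allele, a log2 difference of -0.33 (adjusted p = 0.174). AT1G73020, 3277 bases from PS2, gave 2.94 and 2.74 FPKM in the wild type and 3.47 and 2.88 FPKM with the apc8-1 allele.

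Genes with the profile most like those of the 4 genes that spanned at least 1 on the log2 scale were sought among 17313 other tested loci with a single gene name, by the Euclidean distance between centred log2(FPKM + 1) values over the 6 libraries. For PS2 the nearest were AT2G45220, a pectin methylesterase inhibitor superfamily gene, at a distance of 0.89, and SPX3, an inhibitor gene of phosphate signalling, at 0.98. AT2G45220 had a mean of 39.7 FPKM in the wild type, 3.37 in apc8-1 and 35.6 in nrpe1-12. For PEPC1 they were CYP71A12, a cytochrome P450 gene, at 0.17, and again SPX3, at 0.24. SPX3 had a mean of 16.9 FPKM in the wild type, 0.764 in apc8-1 and 12.2 in nrpe1-12. For PAP17 they were AT5G44380, a FAD-binding berberine family gene, and IOS1, a leucine-rich repeat receptor kinase gene, each at 0.16. For RNS1 they were AT2G44010, of unknown function, at 0.26, and AT1G51890, a leucine-rich repeat kinase gene, at 0.32.

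Of the 25 other purple acid phosphatase genes listed for Arabidopsis, 24 were in the table and 12 passed the filter. Over all tested loci, 30.2% were called in apc8-1 against Col-0 and 26.3% in nrpe1-12 against Col-0. In apc8-1 against Col-0, 1 of these 12 rose, 6 fell and 5 were not called, with a median log2 difference of -0.37 against 0.01 over all tested loci. Without Col-0 replicate 1 the total was 4 calls, and without Col-0 replicate 2 it was 3. In nrpe1-12, 2 rose, 4 fell and 6 were not called, with a median of -0.18 against -0.01, and the total was 3 without Col-0 replicate 2 or without nrpe1-12 library a. The largest decreases in apc8-1 were those of genes with little transcript in Col-0. PAP7 gave 1.95 and 2.16 FPKM in the wild type, 0 and 0.0635 FPKM with the apc8-1 allele, and 0.925 and 0.965 FPKM with the nrpe1-12 allele. It reached the filter only through Col-0, so it could be called lower in a mutant but not higher. It was not tested when either Col-0 library was left out. PAP14 and PAP22 passed the filter through Col-0 and nrpe1-12, with no apc8-1 library at 1 FPKM or more. In apc8-1 these 2 genes could therefore hardly be called higher. PAP14 gave 1.89 and 1.76 FPKM in the wild type, 0 and 0.0470 FPKM with the apc8-1 allele, and 1.46 and 1.33 FPKM with the nrpe1-12 allele (log2 difference -1.46 in apc8-1, adjusted p = 3.43e-04, and -0.24 in nrpe1-12, adjusted p = 0.306, by limma).

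PAP8 fell from 12.98 ± 1.20 FPKM in the wild type to 5.72 ± 0.256 in apc8-1 (log2 difference -1.06, SE 0.10, adjusted p = 2.17e-04) and to 8.29 ± 0.374 in nrpe1-12 (-0.59, adjusted p = 0.0041). PAP3 rose to a like level in both mutants, from 10.7 ± 1.04 FPKM in the wild type to 15.1 ± 0.661 in apc8-1 (log2 difference 0.47, adjusted p = 0.0071) and 15.0 ± 0.662 in nrpe1-12 (0.46, adjusted p = 0.0090). Both PAP3 calls were lost without Col-0 replicate 2 (adjusted p = 0.0563 and 0.0704), and that of nrpe1-12 also without its library a (adjusted p = 0.0576). PAP22 moved in opposite directions, from 1.11 and 0.986 FPKM in the wild type to 0.178 and 0.130 in apc8-1 and to 3.80 and 2.49 in nrpe1-12, and the mutants differed from each other by -1.83 on the log2 scale (adjusted p = 5.53e-04). The decrease of PAP22 in apc8-1 (adjusted p = 0.0126) was lost without either Col-0 library (adjusted p = 0.0752 and 0.0526). AT1G25230, annotated as a calcineurin-like metallophosphoesterase gene, gave 25.6 and 24.9 FPKM in the wild type, 28.5 and 29.7 FPKM with the apc8-1 allele, and 15.1 and 14.3 FPKM with the nrpe1-12 allele, where it fell (log2 difference -0.74, adjusted p = 2.69e-04). In apc8-1 it did not pass the test (adjusted p = 0.0717).

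**Figure D4:**
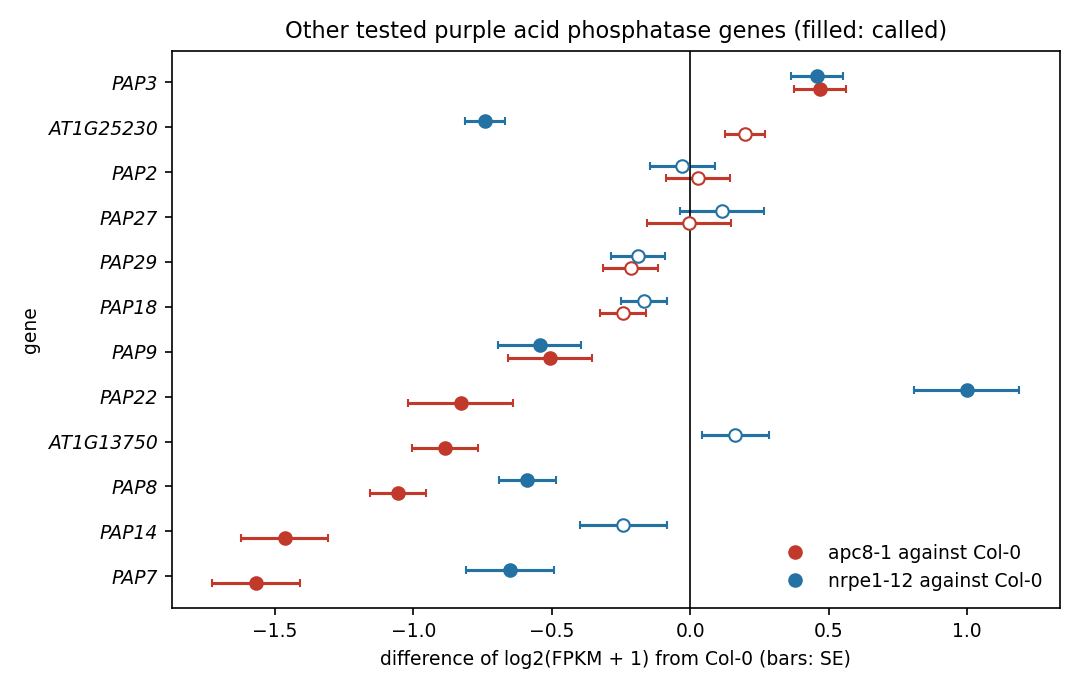
Difference from Col-0 on the log2(FPKM + 1) scale (horizontal axis, bars for the SE of the fit) of the 12 other tested purple acid phosphatase genes (vertical axis) in apc8-1 (red) and nrpe1-12 (blue), with filled points for called differences. PAP22 lies at -0.83 in apc8-1 and at 1.00 in nrpe1-12, and AT1G25230 at 0.20 and -0.74.

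Of the 10 other nuclease genes listed (T2 ribonucleases, S1-type nucleases and the exonuclease DPD1, which degrades organelle DNA), all were in the table and 7 were tested. In apc8-1 none rose and 4 fell, where 30.2% of all tested loci were called, with a median log2 difference of -0.52, and the count was 2 without either Col-0 library. In nrpe1-12 none rose and 2 fell, a share near the 26.3% of all tested loci called there, with a median of -0.39, and the count was 1 without any single Col-0 or nrpe1-12 library. ENDO1, also called BFN1, a senescence-associated nuclease gene, gave 3.19 and 4.65 FPKM in the wild type, 1.13 and 1.34 FPKM with the apc8-1 allele, and 2.50 and 2.80 FPKM with the nrpe1-12 allele (log2 difference -1.12 in apc8-1, adjusted p = 0.0020). AT1G14210, annotated as a T2 ribonuclease gene, fell by 0.52 on the log2 scale in apc8-1 (adjusted p = 0.0025) and by 0.59 in nrpe1-12 (adjusted p = 0.0016). Both calls held in each fit that tested the gene. RNS3, a T2 ribonuclease gene, was called lower in both mutants too (-0.56 and -0.64, adjusted p = 0.0383 and 0.0260), but both calls were lost without Col-0 replicate 1 (adjusted p = 0.0825 and 0.0660) or replicate 2 (adjusted p = 0.205 and 0.161). RNS2, the intracellular relative of RNS1, was the most abundant of the nuclease genes. It had 56.4 ± 4.64 FPKM in the wild type, 49.1 ± 3.996 in apc8-1 and 56.9 ± 4.11 in nrpe1-12, with log2 differences of -0.20 (adjusted p = 0.138) and 0.01 (adjusted p = 0.930).

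Among 33 other genes of phosphate signalling, lipid remodelling and uptake, 26 were tested. In apc8-1, 18 fell, 1 rose and 7 were not called, where 30.2% of all tested loci were called, with a median log2 difference of -0.80. In nrpe1-12, 4 fell, 5 rose and 17 were not called, not far from the 26.3% of all tested loci called there, with a median of -0.09, and the total went from 9 to 4 without Col-0 replicate 1, 3 without Col-0 replicate 2 and 4 without nrpe1-12 library b. Without the organelle and rRNA genes the nrpe1-12 calls were 7 decreases and 1 increase. Between the mutants, 16 of the 26 were lower and 1 higher in apc8-1, where 18.7% of all tested loci were called, 11.4% lower and 7.26% higher. This list overlaps genes already known to be lower in apc8-1 from earlier results of these libraries, so its count is not independent evidence. SPX3 fell by 3.34 in apc8-1 (SE 0.12, adjusted p = 1.75e-06) and by 0.44 in nrpe1-12 (adjusted p = 0.0261), the latter call being lost without either Col-0 library (adjusted p = 0.111 and 0.128) or nrpe1-12 library b (adjusted p = 0.151). IPS1, a noncoding RNA gene that sequesters miR399, gave 5.64 and 5.59 FPKM in the wild type, 0.196 and 0.197 FPKM with the apc8-1 allele, and 4.51 and 2.06 FPKM with the nrpe1-12 allele (log2 difference -2.47 in apc8-1, adjusted p = 2.64e-04). The 1 increase in apc8-1 was that of SPX4, another SPX domain gene (log2 difference 0.38, adjusted p = 0.0345), which was also called higher in nrpe1-12 (0.36, adjusted p = 0.0467). Both calls were lost without Col-0 replicate 2 (adjusted p = 0.205 and 0.264) and without the organelle and rRNA genes (adjusted p = 0.0808 and 0.130). SQD1, a gene of sulfolipid synthesis, was called higher in nrpe1-12 (0.31, adjusted p = 0.0276), but not without either Col-0 library (adjusted p = 0.143 and 0.0882) or either nrpe1-12 library (adjusted p = 0.133 and 0.0644). NPC4, a phospholipase C gene of membrane lipid recycling, fell by 2.43 on the log2 scale in apc8-1 (adjusted p = 1.22e-05 by limma). SPX3, IPS1 and NPC4 were among the listed genes with no apc8-1 library at 1 FPKM or more. Such genes passed the filter through Col-0 and nrpe1-12, so in apc8-1 they could hardly be called higher.

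The transcript of PHR1 itself gave 24.2 and 20.6 FPKM in the wild type and 28.5 and 26.4 in apc8-1. In nrpe1-12 it gave 25.3 and 27.0 FPKM. Neither mutant was called against Col-0 (log2 difference 0.29, adjusted p = 0.0509 in apc8-1, and 0.22, adjusted p = 0.125 in nrpe1-12, by limma). The mutants overlapped, with a log2 difference of 0.07 between them. PHO2, which encodes a ubiquitin conjugase that limits phosphate uptake, fell in nrpe1-12 (log2 difference -0.69, adjusted p = 6.45e-04) and in apc8-1 (-0.39, adjusted p = 0.0082), the latter call being lost without either Col-0 library (adjusted p = 0.0509 and 0.0522). PHO1, a phosphate exporter gene, fell in both (log2 difference -0.68 in apc8-1, adjusted p = 5.55e-04, and -0.49 in nrpe1-12, adjusted p = 0.0030). GDPD1, a glycerophosphodiester phosphodiesterase gene, fell by 0.83 in apc8-1 (adjusted p = 2.39e-04) and rose by 0.47 in nrpe1-12 (adjusted p = 0.0041). PHT1;4, a phosphate transporter gene, fell by 1.99 in apc8-1 (adjusted p = 1.29e-05) and by 0.46 in nrpe1-12 (adjusted p = 0.0160), the latter call being lost without either Col-0 library (adjusted p = 0.0621 and 0.112) or nrpe1-12 library b (adjusted p = 0.0919).

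Because whole seedlings were used, a change in the share of root or shoot cells cannot be told apart from a change in RNA per cell. No difference can be assigned to an organ. Of 12 root marker genes 6 were tested, and 3 of these (EXPA18, CASP1 and MYB36) reached the filter only through Col-0, so that they could be called lower in a mutant but not higher. EXPA18 and CASP1 were called lower in both mutants and MYB36 in neither. Of the other 3, BGLU23 and the nitrate transporter gene NRT2.1 fell in both mutants. NRT2.1 passed the filter through Col-0 and nrpe1-12, with no apc8-1 library at 1 FPKM or more. In apc8-1 it could therefore hardly be called higher. NRT2.1 gave 9.61 and 10.3 FPKM in the wild type, 0.112 and 0.329 FPKM with the apc8-1 allele, and 3.63 and 5.13 FPKM with the nrpe1-12 allele. SCR, which encodes a transcription factor of the root endodermis, was called higher in apc8-1 (log2 difference 0.42, adjusted p = 0.0172) and nrpe1-12 (0.38, adjusted p = 0.0273), and neither call held when any 1 library of the compared genotypes was left out. The summed level of the 12 was 683 to 704 FPKM in the wild type, 383 to 425 in apc8-1 and 497 to 544 in nrpe1-12, and most of it came from BGLU23. The root hair gene EXPA7 was at 0 in both apc8-1 libraries and at 0.583 and 0.778 FPKM in the wild type. It was low in nrpe1-12 too, at 0 and 0.267 FPKM. The root meristem gene PLT1, at 0 in both apc8-1 libraries, and the root stem cell gene WOX5, at 0 in both nrpe1-12 libraries, were also at 0 in 1 Col-0 library each. All 7 green tissue markers rose in both mutants, with a median log2 difference of 0.41 in apc8-1 and 0.52 in nrpe1-12. Over all tested loci, 14.1% were called higher in apc8-1 and 13.5% in nrpe1-12. The 7 markers summed to 25974 to 26293 FPKM in the wild type, 33810 to 35731 in apc8-1 and 35785 to 38143 in nrpe1-12. Of the 7, 6 were higher in each mutant without the organelle and rRNA genes, and with no filter on low values 4 were higher in apc8-1 and 5 in nrpe1-12. Leaving out Col-0 replicate 1 gave 3 higher in apc8-1 and 4 in nrpe1-12, leaving out Col-0 replicate 2 gave 4 in each, and leaving out nrpe1-12 library a gave 4 in nrpe1-12. Between the mutants, the log2 difference of apc8-1 from nrpe1-12 was -2.13 for NRT2.1 and -0.36 for BGLU23, and -0.39 and -0.29 for the green tissue genes RCA and LHCB2.1, and all 4 were called lower. The part of these markers in the levels of the 7 genes was not tested.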

How the data were processed

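The authors deposited FPKM values per locus and library, per the file headers. The submitters' processing notes name the TAIR10 build and the tools Cuffnorm 2.2.1, Cufflinks 2.2.1 and TopHat2 2.0.13. How the libraries were scaled and whether strand was used are not given in the sources used here. The median-of-ratios factors of the deposited values lay between 1.0005 and 1.0103, so the libraries were already close to that scale. A deposited annotation, with 1 exon per locus, gave the class codes used to drop antisense loci (66). Its coordinates are other values, printed as the authors deposited them. The nrpe1-12 columns share a single name, so the left one is called library a and the right one library b. All FPKM columns were used.

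The members, the gene lists and the rule for named genes were chosen with earlier results of these data known. The rule for named genes took all 7 members, up to 3 called genes in each direction of each list with the largest difference in a mutant, and the 2 nearest profiles of members spanning at least 1 on the log2 scale. AT1G73020, AT1G17700, AT2G27200, PHR1, RNS2, the overlapping AT3G17800 and the markers EXPA7, EXPA18, CASP1, MYB36, PLT1, WOX5, NRT2.1, BGLU23, SCR, RCA and LHCB2.1 were named outside it, after their values were seen. RefSeq names matched 31393 of 32069 loci with a single gene name (97.9%).

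Values were transformed to log2(FPKM + 1), and 17802 loci with at least 1 FPKM in 2 libraries were fitted in 1 model of all 6 libraries. The fit used limma 3.58.1 in R 4.3.3 (eBayes with trend, 3 residual and 4.931 prior degrees of freedom). It was also run on data simulated with normal noise, the form limma assumes. Such a run cannot show how well the calls hold for these FPKM values. All adjusted p-values are limma's, with Benjamini-Hochberg adjustment over these loci. With 2 libraries against 2, the smallest p of an exact permutation test is 0.333. Fold changes on this scale understate differences of low genes.

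The table holds no depth totals. What 1 fragment is worth was estimated from single-exon loci longer than 1500 bases, of which 98.9 to 100.0% of values below 12 fragments lay within 0.15 of a whole number once the effective length was shortened by 220 or 240 bases. Fragment numbers of the 7 genes assume the annotated transcript and cover counting error only. The alternatives were a pseudocount of 0.1, no filter, a filter of 5 FPKM, median-of-ratios scaling, organelle and ribosomal RNA genes left out, a replicate block and leaving out each library.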

Additional observations from a re-analysis of the deposited data

How the results depend on the processing

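Under the alternatives, 19 of 235 log2 differences of the 7 genes moved by more than the SD between replicates. Most of these values could not move so far. The filters and the replicate block leave a difference unchanged, and leaving out 1 of 2 libraries cannot shift it by more than that SD. Only the pseudocount, the median-of-ratios scaling and the omission of organelle and rRNA genes could, so the count says little about stability. Sign changes occurred for 3 differences: those of PAP26 in both mutants and of PAP10 in nrpe1-12, each against Col-0. The counts of calls over all loci and over the lists of other genes were within 1.5 times the main count with a pseudocount of 0.1, median-of-ratios scaling and the omission of organelle and rRNA genes. The median-of-ratios factors lay between 1.0005 and 1.0103. That scaling therefore changed the values little, and its like counts say little about dependence on scaling. With no filter on low values, 1 other nuclease gene was called in nrpe1-12 in place of 2, and 0 in place of 1 between the mutants. With a filter of 5 FPKM, which leaves fewer genes to test, the other purple acid phosphatase genes gave 2 calls in apc8-1 (main count 7), 3 in nrpe1-12 (main count 6) and 2 between the mutants (main count 6). The nuclease genes then gave 2, 1 and 0. RNS1 was not tested with that filter.

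Leaving out 1 library gave 3252 to 5168 calls over all loci in apc8-1 against Col-0 (5384 with all), 2710 to 4857 in nrpe1-12 against Col-0 (4679 with all) and 1822 to 2835 between the mutants (3327 with all). The other purple acid phosphatase genes then gave 3 to 7 calls in apc8-1 and 3 to 6 in nrpe1-12. The nuclease genes gave 2 to 3, 1 to 2 and, between the mutants, 0 to 1. The other phosphate starvation genes gave 15 to 19 calls in apc8-1 and 3 to 8 in nrpe1-12.

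Col-0 and apc8-1 share replicate numbers, but nothing says that the numbers pair the samples, and deviations of same-numbered libraries correlated at r = -0.06 over loci. With the replicate block 4928 loci were called in apc8-1 against Col-0, and PS2 differed by -3.94. No paired fit was possible for nrpe1-12, whose columns carry no distinct numbers. At the estimated depth RNS1 in apc8-1 rests on 7 fragments in all.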
